A study of Oryzias latipes with 27 samples.

Results

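The development of the testis of medaka (Oryzias latipes) between 10 and 30 days post hatch (D10 and D30) was followed in the wild-type XY males of the series, WT_Ma_Te. The comparison rests on 6 of the 27 libraries, 3 from D10 and 3 from D30, which were chosen by the stage, sex and genotype in their labels and not by any measured value. All 6 were labelled wild type, male and gonad, with no treatment named, and the study calls this group testis. In the study's sampling, a D10 library was made from the gonadal primordium with the neighbouring tissue of the trunk, after removal of head and tail, and for the later stages no such neighbouring tissue is described. The other groups of the series are the testes of D120, the ovaries of wild-type XX females (WT_Fe_Ov) and the ovaries of XY fish with a mutated DMY, the sex-determining gene on the Y chromosome. The libraries are labelled as biological replicates, but the sources used here do not say how many fish went into each, so the spread between them may be that of animals or of pools. Poly(A) RNA was sequenced, and values are given as raw counts of read pairs per gene or as FPKM, a level scaled by the exon length of the gene and the total of the library. Where 3 values are listed for a stage, they are those of replicates 1, 2 and 3 in this order.

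As background, the testis is formed by germ cells and by the somatic cells that carry them. Germ cells protect their genome with Piwi proteins and small piRNAs, divide by mitosis as spermatogonia, enter meiosis as spermatocytes and then build the flagellum of the sperm. Sertoli cells enclose the germ cells and secrete factors of the TGF-beta family, among them gsdf and amh, which take part in male sex differentiation of fish. Leydig cells make steroids from cholesterol, and the main androgen of male fish is 11-ketotestosterone. The other tissues of the trunk, such as muscle, liver, gut, kidney and spinal cord, have well-known marker genes of their own.

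The 6 libraries held 5551651 to 17586392 counts, with 5551651 to 11886562 at D10 and 15683082 to 17586392 at D30. After every library was thinned to 5551651 counts, 21857 to 22339 genes were detected at D10 and 22894 to 23341 at D30. The D30 libraries were alike, with Pearson's r of log2 CPM across genes from 0.987 to 0.991 between pairs, and a median SD of 0.142 per gene. The D10 libraries differed more, with r from 0.857 to 0.918 and a median SD of 0.503. They also differed in the markers of other trunk tissues. The genes of skeletal muscle summed to 7749, 17751 and 7578 FPKM in the D10 libraries, highest in replicate 2. Liver genes summed to 2612, 2198 and 696 FPKM and nervous system genes to 729.8, 605 and 1290.2 FPKM, so that replicate 3 was lowest in liver and highest in nerve. A rhodopsin gene of the eye, rho, had 408, 0 and 0 counts at D10, all of them in replicate 1, and the glial transporter slc1a3 had 2, 1 and 397 counts, nearly all in replicate 3. These genes were picked after their values were seen. At D30 the same sums were 102, 95.1 and 101 for muscle, 243, 261 and 248 for liver and 56.1, 56.8 and 59.0 for nerve, below every D10 library in each case. The lists of the gonad were low at D10, where germ cell RNA regulators summed to 55.0, 87.8 and 103 FPKM and testicular somatic regulators to 235, 101 and 89.9. At D30 these sums were 2331, 2279 and 2317 and 2647, 2854 and 2658 FPKM, higher in every library. Most of the somatic sum at D30 came from gsdf alone, with 2008, 2244 and 2036 FPKM. Germ cell genes and the Sertoli cell gene gsdf were thus high in the D30 libraries, in keeping with their label of gonad. In every D10 library, by contrast, the muscle list alone summed to more than both lists of the gonad.

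**Figure D1:**
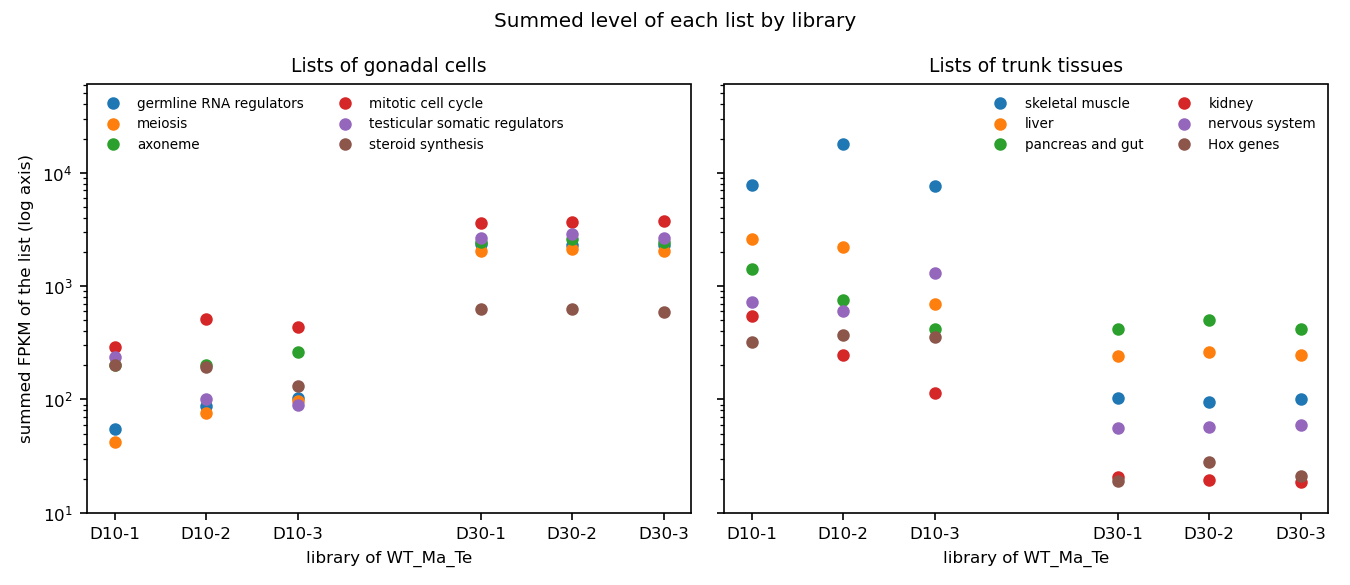
Summed FPKM of 12 gene lists in each of the 6 libraries of WT_Ma_Te, on a log axis, with 1 point per library and list. The lists of gonadal cells at left are higher in all 3 D30 libraries, and at right the D10 libraries carry far more muscle, liver, kidney, nerve and Hox RNA, in amounts that differ between the replicates.

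The first question was which genes differed between the stages. Genes were compared with edgeR's quasi-likelihood test and called where the Benjamini-Hochberg adjusted p was 0.05 or less and the change was 1 or more on the log2 scale in either direction. Of 25306 genes tested, 11812 or 46.7% were called. Of these, 5813 (23.0%) were higher and 5999 (23.7%) were lower at D30. Changes were large, since 1265 of the higher and 1752 of the lower genes changed by at least 4 on the log2 scale. In FPKM, the 3 libraries of D30 did not overlap those of D10 for all 5813 higher genes and for 5311 of the lower ones. Among all 25306 genes tested, called or not, every D30 library was above every D10 library for 10691 and below for 5664. With library totals in place of TMM factors the split was 7664 higher and 4803 lower, and the median log2 fold change over all genes tested moved from 0.12 to 0.53. Trunk tissue was present in the D10 libraries and the stage differed at the same time, so that a change in cells with age and the removal of trunk tissue cannot be told apart here. In bulk samples, too, more cells of a type and more RNA per cell cannot be told apart.

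The direction also moved with gene length and with the class of the gene. Length here is that of all exons of a gene together. Among the genes tested, in the quintile with the shortest length, with a median of 864 bases, 27.1% were higher and 12.9% lower at D30. In the quintile with the longest, with a median of 5797 bases, 13.0% were higher and 40.4% lower, and the median log2 fold change fell in every step from 0.93 to -0.69. The D30 testis libraries were also sequenced with shorter reads than the D10 libraries, and the part of read length in this pattern was not tested. Long noncoding RNAs were more often higher (24.1% of 2870) than lower (10.7%) at D30, and protein-coding genes were higher in 23.2% and lower in 25.7% of 21806. Over the 24 chromosomes, the share of genes higher at D30 lay between 20.3% and 26.8%. At equal depth, 103 genes had at most 3 counts in every D10 library and at least 100 in every D30 library, and 68 genes showed the opposite. Of the 103 genes, 90 were protein-coding and 11 long noncoding RNAs, and sycp1, dazl, fshr, spo11 and ythdc2 were among the 32 with a symbol. Of the 68 genes, 66 were protein-coding, with the muscle and nerve genes xirp2, srl, mpz and prph among the 19 with a symbol.

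**Figure D2:**
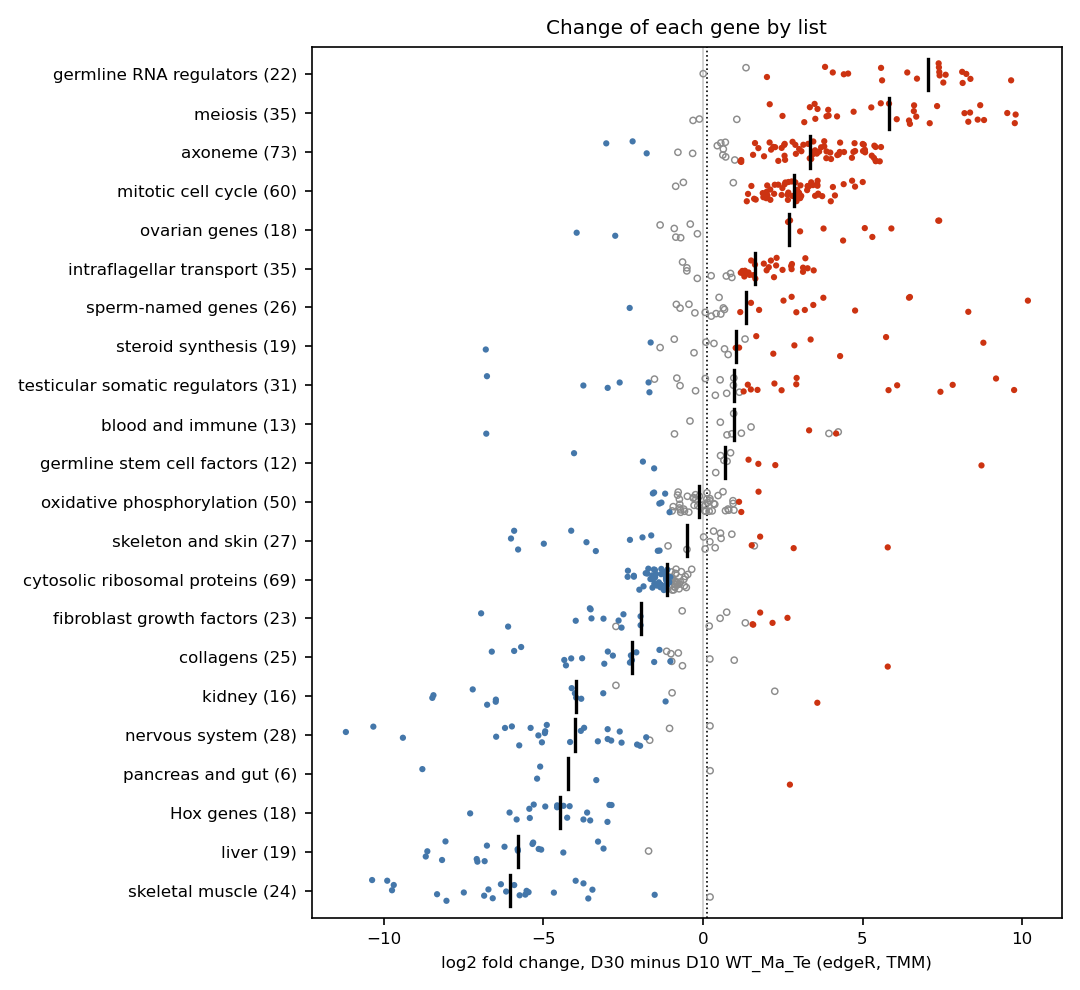
Log2 fold change of each gene of 22 lists between D10 and D30 WT_Ma_Te, with the number of genes tested in brackets. Filled points passed the test (red higher, blue lower at D30), open points did not, black bars are medians and the dotted line is the median of 0.12 over all genes tested. The lists of germline RNA regulators and meiosis lie at the top and those of muscle and liver at the bottom.

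The largest increases among named genes were those of germ cells in meiosis and of the gonadal soma. The sperm protein izumo1, which binds sperm to egg in mammals, went from 0, 0.112 and 0 FPKM at D10 to 61.1, 68.1 and 56.9 at D30. It had 1 count in all D10 libraries together, so that the ratio of the scaled counts was 1401 (95% interval 251 to 55369), an interval for counting error only. The synaptonemal complex genes sycp1 and scp3 (SYCP3 in other species) rose by 9.80 and 9.53 on the log2 scale. The first, which forms the zipper between paired chromosomes, had 0.0742, 0.0812 and 0.106 FPKM at D10 and 99.0, 106 and 103 at D30. Further meiotic genes among the 12 largest increases were smc1b, a cohesin subunit (9.77 ± 0.76 (SE), adjusted p = 4.13e-05), m1ap, rad51ap2 and ccnb1ip1, a factor of crossover formation. The RNA-binding protein dazl, misrii (the receptor of amh), fshr (the receptor of follicle-stimulating hormone), cyp17 (an enzyme of androgen synthesis) and nanog completed the 12. None of these 12 genes had more than 10 counts over the D10 libraries except cyp17, with 14.

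In the lists of genes that follow, the members with the highest levels and those known for the role of the list are described, and genes given as exceptions to their list were picked after their values were seen. Germ cell RNA regulators rose almost as a whole. Of 22 genes of this list, 20 were higher and 0 lower at D30, against 23.0% higher among all genes tested, and their median log2 fold change was 7.05. The RNA helicase ddx4 (vasa), the standard marker of germ cells in fish, had 0.471, 2.97 and 1.16 FPKM at D10 and 351, 325 and 375 at D30 (7.40 ± 0.72 (SE), adjusted p = 0.000103). All D10 values were far below every D30 value, and replicate 1 was lowest at D10. The Piwi protein piwil1 went from 0.588, 1.62 and 1.26 to 434, 436 and 421 FPKM (8.14 ± 0.52 (SE), adjusted p = 2.22e-05), and piwil2 from 0.268, 0.32 and 0.261 to 118, 115 and 115 (8.25 ± 0.32 (SE), adjusted p = 7.77e-06). Of their partners in piRNA production, tdrd1 rose by 7.60, asz1 by 8.38, mov10l1 by 7.39 and henmt1, which methylates the ends of piRNAs, by 4.07 on the log2 scale. The factor dnd1, needed for germ cell survival in fish, rose from 0.823, 2.25 and 2.10 to 49.6, 55.3 and 52.9 FPKM (4.55 ± 0.40 (SE), adjusted p = 6.51e-05). Smaller levels were reached by nanos3, at 14.5, 14.9 and 13.4 FPKM, and by nanos2, a gene of spermatogonial stem cells, at 6.33, 8.26 and 5.73. The 2 exceptions were tdrkh, with 21.3, 53.9 and 72.8 and then 65.1, 60.3 and 71.2 FPKM (0.01 ± 0.39 (SE), adjusted p = 0.986), and ybx2 (1.35 ± 0.51 (SE), adjusted p = 0.0531).

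Of 12 genes tied to undifferentiated germ cells, 4 were higher, 3 lower and 5 did not pass the test, near the shares of 23.0% and 23.7% among all genes. The pluripotency factor nanog had 3 counts in all at D10 and 48.9, 41.7 and 47.5 FPKM at D30, and the kit receptor, sall4 and zbtb16 were the others that rose (log2 fold changes of 1.74, 2.27 and 1.43). sox2, a factor of neural cells as well, fell from 24.6, 15.7 and 23.4 to 1.75, 1.61 and 1.76 FPKM (-4.04 ± 0.25 (SE), adjusted p = 2.09e-05), and prdm1 and prdm1b also fell. klf4 stood at 5.997, 3.42 and 8.50 FPKM at D10 and 10.7, 10.9 and 12.6 at D30 and did not pass (0.55 ± 0.31 (SE), adjusted p = 0.17). Neither did gfra1, a receptor of spermatogonial stem cells in mammals, with means of 1.61 to 3.79 FPKM.

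Meiotic genes rose nearly throughout, with 32 of 35 higher (23.0% of all genes tested), 0 lower and a median log2 fold change of 5.83. spo11, the enzyme that cuts DNA to start recombination, had 0.238, 0.293 and 0.255 FPKM at D10 and 123, 125 and 105 at D30 (8.37 ± 0.31 (SE), adjusted p = 7.77e-06). The recombinase dmc1 went from 0.207, 0.68 and 0.444 to 58.7, 59.6 and 56.5 FPKM, and scp3 from 0.203, 0.111 and 0.435 to 219.7, 245 and 239.8. spata22, a partner of single-stranded DNA in recombination, reached 145, 158 and 151 FPKM (8.31 ± 0.47 (SE), adjusted p = 1.56e-05). rec8, a cohesin of meiosis, was already measurable at D10 with 1.37, 3.40 and 2.52 FPKM and reached 36.8, 38.3 and 34.8 (3.50 ± 0.37 (SE), adjusted p = 0.000147). At D120 most of these levels were of the same order, as for scp3 with 305 ± 38.0 FPKM (SD, n = 3). Among the members that did not pass was terb1, which ties telomeres to the nuclear envelope in meiosis, with mean levels of 7.11 to 19.1 FPKM from D10 to D30.

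The levels of germ cell genes were also set against that of ddx4 in the same library. Whether trunk tissue added to the level of either gene at D10 was not tested. The pairs below were chosen after the values were seen, and at D10 they rest on few counts, with 13, 50 and 15 counts of ddx4. The other gene had 3, 2 and 2 counts for sycp1, 3, 1 and 3 for scp3, 4, 4 and 1 for nanos3 and 21, 35 and 25 for dnd1. The ratio of piwil1 to ddx4 was 1.25, 0.546 and 1.08 at D10 and 1.24, 1.34 and 1.12 at D30, and these ranges overlap. The ratio of sycp1 to ddx4 was 0.158, 0.0273 and 0.0911 at D10 and 0.282, 0.326 and 0.276 at D30, higher in all 3 D30 libraries, and 0.902, 1.14 and 1.33 at D120. The ratio of scp3 to ddx4 was 0.431, 0.0374 and 0.374 and then 0.626, 0.755 and 0.64, while that of spo11 overlapped between the stages. In the opposite direction, the ratio of dnd1 to ddx4 went from 1.75, 0.758 and 1.80 in the D10 libraries to 0.141, 0.17 and 0.141 in those of D30, and D120 libraries had 0.0321, 0.0333 and 0.0389. The ratio of nanos3 to ddx4 was also lower at D30 without overlap, going from 0.955, 0.248 and 0.207 to 0.0413, 0.0459 and 0.0357. With 3 libraries in each group, an exact permutation test cannot go below p = 0.10, and none was run.

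**Figure D3:**
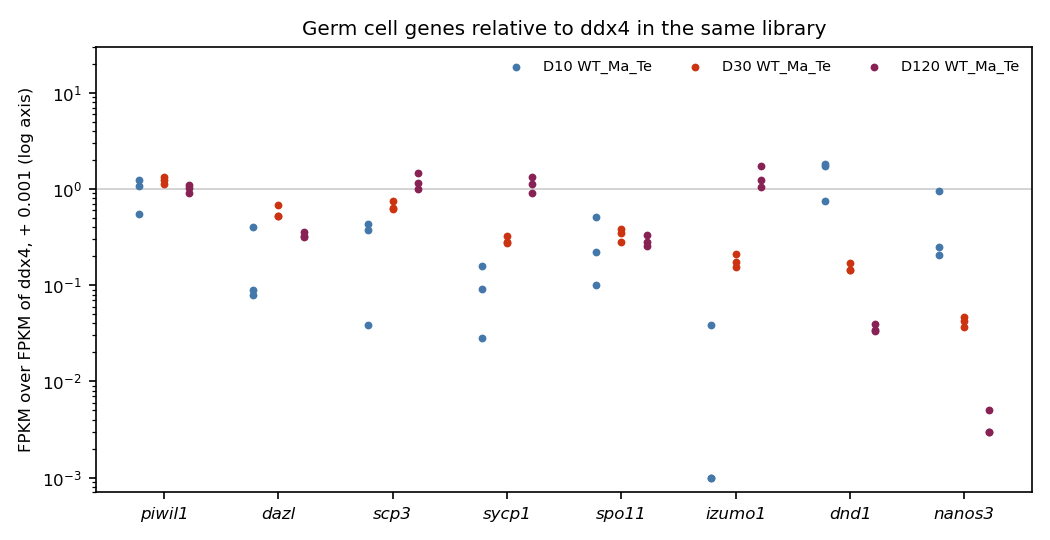
FPKM of 8 germ cell genes divided by the FPKM of ddx4 in the same library of WT_Ma_Te (plus 0.001, log axis), 1 point per library at D10, D30 and D120. The ratio of sycp1 is higher and those of dnd1 and nanos3 are lower at D30 than at D10, without overlap, whereas piwil1 stays near 1, and at D10 all but piwil1 and dnd1 rest on 0 to 4 counts of the gene in a library.

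Genes of the flagellum rose as well. Of 73 axonemal genes (dyneins, radial spokes, cilia and flagella associated proteins), 61 were higher, 3 were lower and 9 did not pass, with a median log2 fold change of 3.35. Among all genes tested, 23.0% were higher and 23.7% lower. The study followed one of them, cfap52 (chromosome 1, 9132358 to 9148079), by quantitative PCR, and those primers are shown 5′ to 3′ as the study's own assay of the gene. They played no part in the values given here, which count read pairs over all exons.
cfap52 forward: gtggtcatgccttttgggac
cfap52 reverse: tgaggctgtgtccgtcaatc

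cfap52 went from 2.41, 2.49 and 3.04 FPKM at D10 to 53.9, 45.6 and 47.3 at D30 (3.80 ± 0.22 (SE), adjusted p = 1.68e-05), with no overlap of the stages. cfap161, an inner protein of axonemal microtubules, went from 7.59, 5.95 and 1.99 to 142, 149.95 and 131 FPKM (4.29 ± 0.46 (SE), adjusted p = 0.000167), and dnal1, a dynein light chain, from 1.66, 2.27 and 2.96 to 117, 178 and 120.2 (5.54 ± 0.34 (SE), adjusted p = 1.9e-05). The dynein heavy chain dnah9 was low at both stages, with 0.246, 0.535 and 0.342 and then 8.15, 5.74 and 8.09 FPKM, and rose by 3.86 on the log2 scale. dnai1 and spag6, parts of the outer dynein arm and of the central pair, rose by 4.01 and 3.46. At D120 both cfap161 and dnai1 were higher again, with 522 ± 44.3 FPKM for cfap161 and 142 ± 20.1 for dnai1 (SD, n = 3). The 3 genes that fell were cfap100, tekt3 and ttc25, all with means under 2 FPKM, and without D30 replicate 1 only 1 of them was called. The transcription factor foxj1, which drives motile cilia in vertebrates, did not change beyond the threshold, with 9.32, 2.27 and 4.73 FPKM at D10 and 6.87, 4.38 and 6.09 at D30 (-0.32 ± 0.47 (SE), adjusted p = 0.584), and its direction turned with library totals and without D10 replicate 1. armc2, a gene needed for the sperm flagellum in mammals, was at 9.04, 15.9 and 21.3 and then 11.9, 11.7 and 11.7 FPKM and did not pass either (-0.78 ± 0.30 (SE), adjusted p = 0.0534), though without D10 replicate 1 it was called lower.

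The carriers of intraflagellar transport, which serve every cilium, moved by less. Of 35, 27 were higher (23.0% of all genes tested) and 0 lower, with a median log2 fold change of 1.63. With a threshold of 2 on the log2 scale 14 were higher, beside 3410 of all 25306 genes tested. ift43 rose from 5.91, 8.34 and 10.2 to 69.6, 82.9 and 69.7 FPKM (2.79 ± 0.27 (SE), adjusted p = 0.000102) and ift20 from 24.4, 17.7 and 37.5 to 104, 113 and 105 (1.63 ± 0.26 (SE), adjusted p = 0.00105). Of 26 genes whose symbols were given for sperm or testis, 14 rose and 1 fell, against 23.0% and 23.7% of all genes tested. The 1 that fell was spag9, a scaffold of kinase signalling found in many tissues. The highest in level, spata22 and tex11, belong to meiosis, and tex11 went from 0.352, 0.799 and 1.16 to 87.8, 83.4 and 85.5 FPKM (6.46 ± 0.42 (SE), adjusted p = 2.38e-05).

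**Figure D4:**
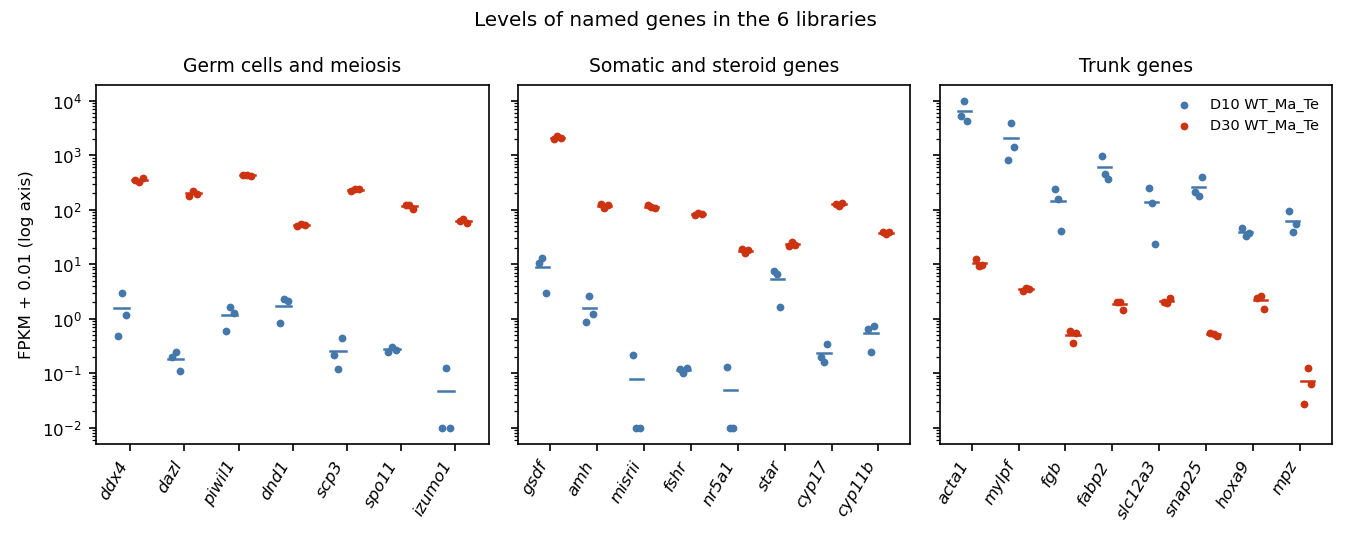
FPKM (plus 0.01, log axis) of named genes in each D10 (blue) and D30 (red) library of WT_Ma_Te, with the mean as a bar. For every gene shown the 3 D30 points lie apart from the 3 D10 points, above them for germ cell, somatic and steroid genes and below them for trunk genes.

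Somatic genes of the testis changed in both directions. Of 31 regulators on this list, 14 were higher, 6 lower and 11 did not pass, with a median log2 fold change of 0.97. Among all genes tested 23.0% were higher and 23.7% lower, so the 6 were not above the share of all genes. gsdf, made by Sertoli and supporting cells and an early target of the male pathway in medaka, was the most abundant of them. The gene lies on chromosome 12, 10455047 to 10458695 in ASM223467v1. It was also followed by quantitative PCR, with these primers.
gsdf forward: ggtgtcacggacactacagc
gsdf reverse: attgtcccagcccagatctttc

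gsdf went from 10.4, 12.9 and 2.90 FPKM at D10 to 2008, 2244 and 2036 at D30 (7.44 ± 0.73 (SE), adjusted p = 0.000109), and the lowest D30 library was above every D10 library by far. amh, the anti-Müllerian hormone, went from 0.852, 2.58 and 1.22 to 125, 109 and 122 FPKM (5.81 ± 0.51 (SE), adjusted p = 6.63e-05). Its receptor misrii was at 0.201, 0 and 0 FPKM at D10, with counts in replicate 1 alone, and at 122, 110.3 and 107 at D30. nr5a1, the nuclear receptor that governs steroidogenic cells, was at 0.118, 0 and 0 and then 18.7, 15.9 and 18.2 FPKM, a ratio of the scaled counts of 232 (95% interval 79.4 to 1127). fshr went from 0.108, 0.0886 and 0.116 to 79.6, 85.9 and 82.8 FPKM, and inha, a subunit of inhibin, rose by 6.08 on the log2 scale. wt1 and dhh, a Sertoli cell signal, were present at D10 and rose by 2.94 and 2.46, dhh from 4.81, 1.91 and 2.66 to 21.0, 25.4 and 23.2 FPKM. By contrast, sox9, with 28.1, 5.15 and 9.09 and then 41.0, 35.1 and 33.9 FPKM, did not pass (0.96 ± 0.53 (SE), adjusted p = 0.164), and neither did gata4 (0.97 ± 0.48 (SE), adjusted p = 0.124). Both are made in other trunk tissues too, and whether such tissue added to their D10 levels was not tested. Both were highest at D10 in replicate 1. Without that library both were called higher at D30, with sox9 reaching a log2 fold change of 1.98 and gata4 one of 1.55. sox9 was also called higher with a replicate block, and gata4 with library totals. Among the genes that fell were sox8, sox10, gdnf and nr0b2. As background, sox10 is a marker of neural crest, and nr0b2 is a nuclear receptor of liver. Which tissue their D10 levels came from was not tested.

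The steroid pathway rose at several of its steps. On its list, which also holds genes that are not enzymes of the pathway, 9 of 19 were higher, 2 were lower and 8 did not pass. Among all genes tested, 23.0% were higher and 23.7% lower. star, which brings cholesterol into mitochondria, was also measured in the study by quantitative PCR (chromosome 9, 18679999 to 18681561), with these primers.
star forward: cagaagggcatcattagagctga
star reverse: gtctttgggatccagccctt

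star went from 7.59, 6.61 and 1.605 FPKM at D10 to 21.2, 26.1 and 22.7 at D30 (1.67 ± 0.54 (SE), adjusted p = 0.0311). This call was lost in 5 of 14 alternative tests, among them each of the 3 that left out a D30 library, with adjusted p up to 0.0975. The side-chain cleavage enzyme cyp11a, which follows, went from 2.05, 1.91 and 3.10 to 33.2, 28.4 and 34.5 FPKM (3.37 ± 0.26 (SE), adjusted p = 4.11e-05), and 3bhsd from 1.53, 0.65 and 0.727 to 28.8, 22.2 and 29.1 (4.30 ± 0.41 (SE), adjusted p = 9.79e-05). cyp17 went from 0.184, 0.151 and 0.329 to 127, 117 and 133 FPKM (8.79 ± 0.35 (SE), adjusted p = 7.77e-06), by far the steepest of the pathway. cyp11b, which leads to 11-oxygenated androgens in fish, went from 0.627, 0.238 and 0.723 to 39.1, 35.4 and 38.8 FPKM (5.74 ± 0.36 (SE), adjusted p = 2.14e-05). In the same libraries the ratio of cyp17 to star was 0.0243, 0.0229 and 0.205 at D10 and 5.9998, 4.51 and 5.85 at D30, again chosen after the values were seen and resting on 6, 3 and 5 counts of cyp17 at D10. lhcgr, the receptor of luteinizing hormone on Leydig cells, stayed low, with 1.19, 0.743 and 1.46 FPKM at D30 (2.87 ± 0.58 (SE), adjusted p = 0.00355). The aromatase gene LOC101174651, which turns androgens into oestrogens, was at or under 0.1 FPKM in all 6 libraries. hsd17b3, an androgen-forming enzyme in mammals, fell from 8.05, 15.1 and 20.3 to 5.83, 6.62 and 5.93 FPKM (-1.64 ± 0.33 (SE), adjusted p = 0.00368). insl5, a member of the list that is not a step of steroid synthesis, fell to near 0.

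Genes known from the ovary were not absent from the D30 testis. Of 18 on this list, 10 were higher and 2 lower, fst and wnt4b, against 23.0% and 23.7% of all genes tested. Some of the 10 act in both sexes, as do the oestrogen receptors esr1, with 0.813, 0.346 and 0.387 and then 43.5, 43.3 and 44.5 FPKM (5.90 ± 0.36 (SE), adjusted p = 1.89e-05), and esr2 (3.04 ± 0.25 (SE), adjusted p = 4.81e-05). Others are defining genes of oocytes. figla, a transcription factor of young oocytes, went from 0.07, 0 and 0.3 to 22.6, 26.3 and 25.6 FPKM in the testis (7.40 ± 0.64 (SE), adjusted p = 6.02e-05), and lhx8 and nobox rose by 5.31 and 7.37. bmp15, an oocyte growth factor, reached 4.04, 3.77 and 5.94 FPKM (5.07 ± 0.63 (SE), adjusted p = 0.000317) and zar1, a maternal gene, 6.29, 8.43 and 8.59 (3.78 ± 0.51 (SE), adjusted p = 0.000494). In D30 WT_Fe_Ov the levels were 264 ± 20.1 FPKM for figla, 324 ± 2.35 for bmp15 and 959.9 ± 15.6 for zar1 (SD, n = 3). Ovarian levels were thus far above those of the testis at the same stage. By D120 the testis was at 5.65 ± 0.198 FPKM for figla and 0.571 ± 0.108 for bmp15. foxl2, the regulator of ovarian somatic cells, was low at both stages, with 3 counts at D10 and 0.585, 1.09 and 1.06 FPKM at D30. It was called higher at D30 (2.67 ± 0.87 (SE), adjusted p = 0.0307). That call was lost in 5 of 13 alternative tests, among them those without D10 replicate 2, D30 replicate 2 and D30 replicate 3.

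Genes of dividing cells were higher at D30. Of 60 genes of DNA replication and mitosis, 57 were higher (23.0% of all genes tested) and 0 lower, with a median log2 fold change of 2.85. pcna, the sliding clamp of DNA polymerase, went from 27.8, 46.0 and 33.6 to 361, 401 and 356 FPKM (2.95 ± 0.31 (SE), adjusted p = 0.000161) and cdk2 from 4.87, 4.38 and 4.21 to 181, 208 and 192 (5.01 ± 0.27 (SE), adjusted p = 1.33e-05). cdk1, the kinase of mitosis, was highest at D10 in replicate 2, with 10.6, 42.7 and 12.8 FPKM, and reached 200.1, 195 and 193 (2.68 ± 0.56 (SE), adjusted p = 0.00429). The 3 that did not pass were mcm7, ccnd1 and top2b. The telomerase gene tert went from 1.10, 1.38 and 1.91 to 7.001, 6.98 and 7.41 FPKM (1.89 ± 0.29 (SE), adjusted p = 0.000896).

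Genes of trunk tissues were lower at D30. Of 24 genes of skeletal muscle, 23 were lower and 0 higher at D30, against 23.7% lower among all genes tested, with a median log2 fold change of -6.04. The actin of skeletal muscle, acta1, went from 5369.9, 9984 and 4172 FPKM at D10 to 12.5, 9.32 and 9.48 at D30 (-9.74 ± 0.75 (SE), adjusted p = 4.1e-05), and mylpf, a myosin light chain, from 831, 3971 and 1393 to 3.27, 3.67 and 3.46 (-9.69 ± 0.87 (SE), adjusted p = 7.22e-05). The myosin heavy chains mmyhl1 and mmyhl2 had the largest decreases among the genes with a symbol, with mmyhl1 going from 578, 1926 and 765 to 0.456, 0.128 and 0.215 FPKM (-12.45 ± 1.03 (SE), adjusted p = 5.29e-05). These myosin genes are similar neighbours on chromosome 6, and how reads were split between them was not tested. The muscle microRNA locus mir133-3 had counts in every D10 library and 0 in every D30 library, at least 428-fold lower when D30 is set to 3 counts in all. As background, a poly(A) library holds the longer precursor transcript of such a locus and not the mature microRNA. xirp2, actn3 and cav3, structural proteins of muscle, were among the 12 largest decreases, as were gramd2b, lipc (the lipase of liver), miox (an enzyme of kidney) and mpz. Further, myod1, the regulator of muscle fate, fell from 12.001, 26.0 and 15.3 to 2.05, 1.78 and 2.72 FPKM (-3.46 ± 0.41 (SE), adjusted p = 0.000268). tpm1, a tropomyosin also made in other cells, still had 32.0, 30.7 and 33.2 FPKM in the D30 testis. It was at 32.7 ± 1.85 FPKM in the D120 testis and 25.7 ± 2.03 in D30 WT_Fe_Ov (SD, n = 3). Which cells this RNA came from was not tested.

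Liver, gut, kidney and nerve followed, with levels at D10 that depended on the library. The counts below stand beside 23.7% lower and 23.0% higher among all genes tested. Of 19 liver genes 18 were lower, as with the fibrinogen chain fgb, which went from 238, 155 and 40.5 to 0.586, 0.346 and 0.54 FPKM (-8.63 ± 0.80 (SE), adjusted p = 8.5e-05). rbp4, a carrier of retinol, was at 934, 181 and 108 and then 162, 179 and 164 FPKM and did not pass, and its D30 values lay within the range of D10. It was called lower with DESeq2, in 1 fit of all 27 libraries and without D10 replicate 3. The intestinal fatty acid carrier fabp2 went from 989, 458 and 371 to 2.01, 2.05 and 1.41 FPKM (-8.79 ± 0.57 (SE), adjusted p = 2.26e-05), and of 6 genes of pancreas and gut 4 fell. The sum of this list overlapped between the stages, with 1416, 754 and 414 FPKM at D10 and 421, 498 and 420.2 at D30. cpb1, a digestive enzyme of the pancreas, did not pass the test and overlapped between the stages, with 382, 286 and 30.1 FPKM at D10 and 349, 417 and 359 at D30 (0.23 ± 0.74 (SE), adjusted p = 0.813), and its sign turned without D10 replicate 3. In the same list agr2, a protein of mucous cells, rose from 13.8, 4.13 and 5.03 to 68.0, 78.4 and 59.7 (2.72 ± 0.45 (SE), adjusted p = 0.0014). The D120 testis was below the D30 testis for cpb1, at 24.9 ± 5.16 FPKM, and for rbp4, at 6.02 ± 0.941 (SD, n = 3). Whether other tissue added to the D30 levels of cpb1 and rbp4 was not tested. Of 16 kidney genes 12 fell, with slc12a3, a salt transporter, going from 255, 131 and 23.3 to 1.97, 1.89 and 2.37 FPKM (-6.49 ± 0.88 (SE), adjusted p = 0.000504). Of 28 genes of neurons and glia 25 fell, such as snap25, a protein of synapses, from 208, 179.9 and 407 to 0.544, 0.508 and 0.467 FPKM (-9.40 ± 0.46 (SE), adjusted p = 1.2e-05). mpz, a myelin protein, was at 93.1, 39.4 and 54.2 FPKM at D10 and 0.0173, 0.116 and 0.0535 at D30. All 18 Hox genes, which pattern the body axis, were lower at D30 in the main test and in each of 14 alternative tests, with a median log2 fold change of -4.47. hoxd3 had the steepest decrease of them (-7.29 ± 0.55 (SE), adjusted p = 3.75e-05), and hoxc4 had the highest level at D30, with 2.71, 6.88 and 4.32 FPKM.

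Connective tissue, skin and blood were mixed, beside 23.0% higher and 23.7% lower among all genes tested. Of 27 genes of skeleton and skin, 12 were lower and 4 higher, namely col10a1 and the pigment cell genes pmel, tyr and tyrp1. col1a2, a chain of the main fibrillar collagen, was at 168, 129 and 74.4 FPKM at D10 and 214, 179 and 191 at D30 (0.22 ± 0.38 (SE), adjusted p = 0.65), with the opposite sign without D10 replicate 3, and sparc at 287, 125 and 105 and then 328, 360.4 and 338 (0.57 ± 0.41 (SE), adjusted p = 0.271). Without D10 replicate 1 sparc was called higher, and 9 genes of skeleton and skin were. Of 25 collagens 17 fell and col10a1 alone rose (2 rose without D10 replicate 1), from 6.04, 2.07 and 2.30 to 270.3, 247 and 264 FPKM (5.79 ± 0.50 (SE), adjusted p = 6.18e-05). At D120 col10a1 was at 1.41 ± 0.901 FPKM in the testis (SD, n = 3), below its level at D30. Of 13 blood and immune genes 2 rose and 1 fell, with 6 higher without D10 replicate 1 and 1 higher without D10 replicate 2, D30 replicate 1 or D30 replicate 2. cd74, the chaperone of antigen presentation, went from 46.7, 9.57 and 5.37 to 498, 516 and 498 FPKM (4.17 ± 0.77 (SE), adjusted p = 0.00236), and lyz, lysozyme, fell from 51.8, 79.7 and 6.02 to 0.105, 0.946 and 0.652 (-6.79 ± 1.11 (SE), adjusted p = 0.00127). Of 23 fibroblast growth factors, binding proteins and receptors 12 fell and 5 rose, the 5 near the share of all genes. The 5 were fgf3, fgf4, fgf8, fgf18 and the receptor fgfr3, of which 1 was called without D30 replicate 2 and 2 without D30 replicate 3. fgfr2 went from 70.1, 64.8 and 78.4 to 7.26, 4.62 and 6.03 FPKM (-3.99 ± 0.28 (SE), adjusted p = 2.83e-05), fgfr1 from 35.4, 47.2 and 63.2 to 15.2, 18.1 and 16.5 (-1.95 ± 0.26 (SE), adjusted p = 0.000501), and the binding protein fgfbp3 fell to near 1 FPKM. fgf20b did not pass, with 1.01, 0.955 and 2.38 and then 2.93, 2.89 and 3.501 FPKM (0.74 ± 0.48 (SE), adjusted p = 0.224), and was called higher without D10 replicate 3.

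Housekeeping machinery moved little beside these changes, and its calls rested on the settings. Of 69 cytosolic ribosomal proteins 42 were lower and 0 higher, against 23.7% and 23.0% of all genes tested, with a median log2 fold change of -1.13. The count called lower went from 4 to 55 over the 14 alternative tests. It was 22 without D10 replicate 2, and 20, 21 and 16 without D30 replicates 1, 2 and 3. rps27a went from 1673, 3269.6 and 2348 to 833, 842 and 799.9 FPKM (-1.99 ± 0.38 (SE), adjusted p = 0.00276), whereas rplp0 was at 1799.9, 2162 and 1103 and then 1146, 1272 and 1094 and did not pass (-0.97 ± 0.40 (SE), adjusted p = 0.0732). rplp0 was called lower with DESeq2 and without D10 replicate 3. Of 50 genes of the respiratory chain 41 did not pass, with 3 higher, 6 lower and a median of -0.14. With library totals 10 were higher and 2 lower, beside 7664 higher and 4803 lower among all 25306 genes tested. Over the tests without 1 library each 1 to 5 were higher.

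The second question was where the male change differed from that of the females over the same stages. WT_Fe_Ov was sampled in the same way at D10 and shares no library with the testes, so the difference between both changes was tested directly in 12 libraries. Of 25475 genes tested, 11794 or 46.3% differed between the sexes in their change, 6897 (27.1%) with a more positive and 4897 (19.2%) with a more negative change in males. With library totals in place of TMM the split was 10488 and 2190, and the median difference over all genes moved from 0.51 to 1.38. The D30 testis libraries were the only ones of these 4 groups with shorter reads, so that read length and the male change cannot be told apart in this test. The median difference was 1.11 in the quintile of the shortest genes and 0.36 in that of the longest.

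Axonemal, meiotic and testicular somatic genes had the more positive change in males. Of 73 axonemal genes 53 were higher and 2 lower in this test (27.1% and 19.2% of all genes), of 35 meiotic genes 26 and 2 (4 lower without D10 WT_Ma_Te replicate 1), and of 31 testicular somatic regulators 22 and 0. In the males alone, 14 of these 31 regulators were higher and 6 lower at D30. A more positive change is thus not always a rise in males. cfap161 had the greatest difference among the named genes, 9.61 ± 0.73 (SE), adjusted p = 7.43e-07, with 4.16 ± 0.614 FPKM in D10 WT_Fe_Ov and 0.0662 ± 0.0665 in D30 WT_Fe_Ov (SD, n = 3). cyp11b followed with 8.96 ± 0.59 (SE), adjusted p = 3.27e-07, with 1.38 ± 0.499 FPKM in the D10 females and 0.101 ± 0.0577 in those of D30. The meiotic genes m1ap and smc1b differed by 8.47 and 7.47 on the log2 scale, and col10a1 by 7.75 ± 0.51 (SE), adjusted p = 3.27e-07. On the other side, bmp15 (-6.74 ± 1.19 (SE), adjusted p = 0.000425) and zar1 (-4.61 ± 1.00 (SE), adjusted p = 0.00194) had the more negative change in males. nanos3 differed by -3.84 ± 0.62 (SE), adjusted p = 0.000209, with 44.2 ± 1.25 FPKM in D30 WT_Fe_Ov, and fgfr1 by -2.27 ± 0.28 (SE), adjusted p = 2.49e-05. The aromatase gene LOC101174651 differed by -5.63 ± 1.46 (SE), adjusted p = 0.00589, a call that was lost without D10 WT_Ma_Te replicate 1, where adjusted p was 0.0982, and in 1 fit of all 27 libraries.

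Many of the other lists also held more genes with the more positive change in males, beside 27.1% more positive and 19.2% more negative among all genes tested. More positive and more negative were 14 and 0 of 50 respiratory chain genes, the 14 being near the share of all genes. They were 16 and 3 of 27 genes of skeleton and skin, 12 and 2 of 23 fibroblast growth factor genes, and 10 and 3 of 25 collagens. They were 8 and 0 of 13 blood and immune genes, 8 and 1 of 12 genes of undifferentiated germ cells, 8 and 1 of 18 Hox genes, 8 and 1 of 19 liver genes, and 4 and 0 of 6 genes of pancreas and gut. By contrast, the ovarian genes were split evenly, with 6 and 6 of 18, and the sperm-named genes had 13 and 8 of 26. Intraflagellar transport had 12 and 2 of 35, steroid synthesis 7 and 3 of 19 and kidney 4 and 2 of 16. Cytosolic ribosomal proteins had 5 and 2 of 69, and the 5 ran from 0 to 52 over the alternatives. Over the alternatives the count of respiratory chain genes with the more positive change ran from 1 to 38, that of liver genes from 5 to 14 and that of pancreas and gut from 2 to 6, each highest with library totals. With library totals 10488 of all 25475 genes tested had the more positive and 2190 the more negative change. List counts under that setting stand beside these numbers. Of the 22 germ cell RNA regulators 7 had the more positive change in males and 3 the more negative, shares near those of all genes, and with library totals the 7 became 13. gsdf was at 1.59 ± 0.233 FPKM in the D10 and 75.4 ± 14.7 in the D30 ovary (SD, n = 3), and the difference in its change, 1.38 ± 0.61 (SE), adjusted p = 0.076, did not pass. figla did not pass either (0.24 ± 0.82 (SE), adjusted p = 0.861), with 2.57 ± 1.73 FPKM in the D10 females. Of the 60 genes of the mitotic cell cycle 17 had the more negative change in males and 3 the more positive, which became 5 without D10 WT_Fe_Ov replicate 2 and 9 without D10 WT_Ma_Te replicate 2. With library totals 12 were more negative and 15 more positive, beside 2190 and 10488 of all genes tested under that setting. Of 28 genes of the nervous system 13 had the more positive and 3 the more negative change in males. Of 24 muscle genes these were 8 and 5, again near the shares of all genes. The 8 became 12 with library totals, and 3 to 5 when a D10 WT_Fe_Ov library other than replicate 2, D30 WT_Fe_Ov replicate 2 or D30 WT_Ma_Te replicates 2 or 3 were left out.

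**Figure D5:**
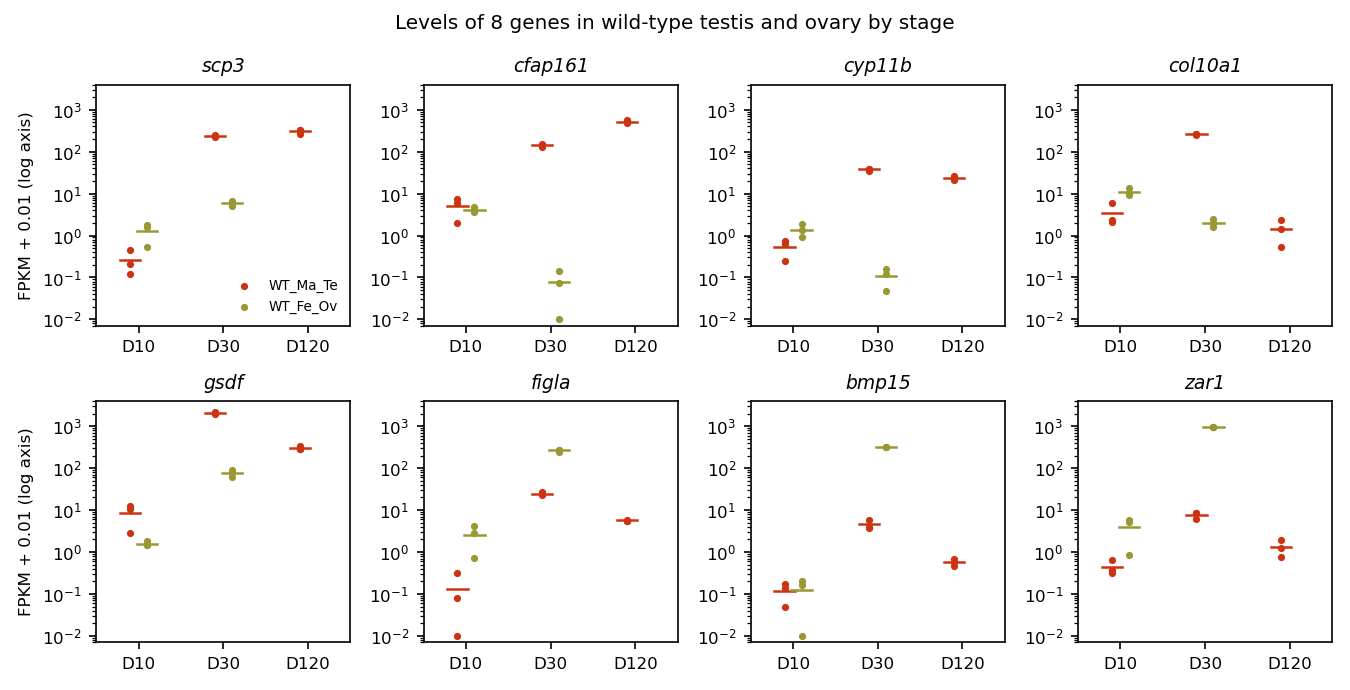
FPKM (plus 0.01, log axis) of 8 genes in WT_Ma_Te at D10, D30 and D120 (red) and in WT_Fe_Ov at D10 and D30 (olive), with 1 point per library and the mean as a bar. scp3, cfap161, cyp11b, col10a1 and gsdf are higher in the D30 testis than in the D30 ovary, and figla, bmp15 and zar1 are higher in the D30 ovary.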

How the data were processed

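The deposited tables hold the raw counts of read pairs per gene and the FPKM that the authors made from the same counts. Per the study's methods, the authors trimmed reads with fastp, aligned them with STAR to the medaka genome, counted pairs over exons with featureCounts, for which no strand option is given, and made FPKM with the fpkm function of DESeq2. The deposited values fit scaling by the library total. Reads from overlapping or antisense genes therefore cannot be told apart. Gene positions came from the RefSeq table of ASM223467v1, in which 26090 of the 26099 genes were found, and 9 symbols were not matched. Groups followed the labels. Counts of all genes with at least 1 count were tested with edgeR 4.0.16 (quasi-likelihood, TMM, Benjamini-Hochberg), 6 libraries for the male change and 12 for its difference from the female change. P-values set the tested difference against the spread between libraries. The SE printed beside a log2 change was not fitted by the model. It was worked back from the size of that change and its F value, and is rough for genes with few counts. FPKM gave levels, overlaps and ratios. The ratio of scaled counts of a gene with few counts carries a 95% interval. A stage without counts was set to 3 counts in all.

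Genes were named if among the 12 largest changes in each direction (called, with a symbol other than LOC, stages apart, a mean of at least 100 counts at the higher stage), among the 3 highest levels of a list, known for a role, or among the 5 largest differences between sexes on each side. The members and gene lists were chosen with earlier results of these data known. The tests were tried on simulated data in which few genes changed and both stages had the same spread. In the real data far more genes were called and the D10 libraries spread more. The simulation therefore does not show how the tests behave here. Alternatives were DESeq2 1.42.0, its size factors, library totals, a low-count filter, other thresholds, 1 fit of all 27 libraries, a replicate block and each library left out. Primer sequences are those listed by the study. Promoter and protein sequences were not used here. Some members of the lists are not reported here by name.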

Additional observations from a re-analysis of the deposited data

Results flagged for a closer look

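Differences between the sexes in the change from D10 to D30 were flagged where the interaction term of the test passed. This held for 6897 genes with a more positive and 4897 with a more negative change in males, counts that shift to 10488 and 2190 with library totals. Among the named genes the most positive differences on the log2 scale were those of cfap161 (9.61), cyp11b (8.96), m1ap (8.47), col10a1 (7.75) and smc1b (7.47). The flagellar gene cfap161 and the androgen gene cyp11b were each under 0.2 FPKM in D30 WT_Fe_Ov. The most negative differences were those of bmp15 (-6.74), LOC101174651 (-5.63), zar1 (-4.61), nanos3 (-3.84) and fgfr1 (-2.27). For LOC101174651, the aromatase gene, the testes held 7 counts over the 6 libraries. Reads were shorter in the D30 testis libraries only, and the part of read length in these differences was not tested.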

How the results depend on the processing

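Of 112 named genes, 91 kept their call and direction in every alternative test of the male change. With a log2 threshold of 2, 7598 genes were called, 3410 of them higher at D30, and 7631 differed between the sexes, 2326 of them with the more negative change in males. With library totals, 10488 had the more positive and 2190 the more negative change in males. DESeq2 called 12128 genes for the male change. Leaving out each library in turn, 9645 to 12627 genes were called for the male change and 10881 to 12478 for the difference between the sexes. The labels give replicate numbers but name no shared animal, litter or day, so the main test used no pairing. Deviations of same-numbered libraries correlated by -0.03, 0.01 and 0.05. The D10 libraries differed in trunk tissue, so these values cannot tell whether the numbers pair the samples. The fit with a replicate block called 11162 genes, with 11553 for the difference between the sexes. The sign of the uncalled foxj1 turned to 0.08 with library totals and 0.09 as a ratio of mean FPKM, with -0.61 to 0.35 without 1 library. Without 1 library cpb1 ran from -0.27 to 0.71 and col1a2 from -0.05 to 0.48. The cause was not tested. With 3 libraries a group and 5551651 counts in the shallowest, changes of genes with few counts at D10 have wide counting errors. The search for motifs in promoters could not be run.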
